A study of Caenorhabditis elegans with 43 samples.

Results

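Ribosome footprints were compared between 2 strains of Caenorhabditis elegans that carry the lin-41(xe11) allele and wild type, at hours chosen as earlier than the repression of lin-41 by let-7. The members were 12 of the 43 libraries of the series, taken by strain and hour: 8 of the xe11 strains and 4 of wild type, at 18, 20, 22 and 24 h of development. The xe11 libraries were 4 of lin-41(xe11) and 4 of a strain with both alleles, lin-41(xe11);let-7(n2853), here called the double mutant, and the wild type libraries were 4 of strain N2. All were made from whole worms of the second time course, grown from synchronised L1 larvae on Escherichia coli NA22 at 25 °C, with monosomes purified by size-exclusion chromatography. The single mutant let-7(n2853) belonged to a first time course with sucrose gradients, so its levels are given as values only. There was 1 library per strain and hour. The hours and the 2 xe11 strains therefore stand in for replicates, and p-values measure the spread between these libraries, not between independent cultures.

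The microRNA let-7 accumulates late in larval development, pairs with sites in the 3′ untranslated region of lin-41 and represses it, which allows larval cells to take adult fates. The protein LIN41 is a TRIM-NHL RNA-binding protein that represses a small set of mRNAs. The n2853 allele changes the seed of let-7, and xe11 changes the let-7 sites of lin-41, so that the double mutant carries both changes and the mutant microRNA can pair with the mutant sites. Separately kept strains can also differ at other places in the genome, and the comparison at these early hours asks which footprint differences are already there.

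The libraries held 8007642 to 12551598 counts in lin-41(xe11), 6133302 to 11335993 in the double mutant and 5020197 to 12361022 in N2. Levels are given as CPM, counts scaled to a library size of 1000000 with TMM factors. They are not divided by gene length, so levels are compared between strains and not between genes. Libraries of the same hour correlated at 0.981 to 0.993 (Pearson, log2 CPM, across genes, which are not independent replicates). Developmental age, estimated by correlation to the N2 course, differed from the sampled hour by 0.2, −0.1, −0.1 and 0.4 h in lin-41(xe11) at 18, 20, 22 and 24 h, and by 0, −0.5, 0 and 0 h in the double mutant. The N2 course starts at 18 h, so no age below 18 h could be given. The double mutant at 18 h stands at that limit, and whether it was younger cannot be told from the estimate. The filter on low counts (at least 1 CPM in at least 4 libraries) was passed by 12089 of 20182 genes. Among tissue markers it was passed by 27 of 27 muscle, 32 of 32 neuronal, 26 of 26 pharyngeal and 15 of 16 seam cell genes. It was also passed by 20 of 21 epidermal, 23 of 29 intestinal and 31 of 34 germline genes. Of male and somatic gonad genes 7 of 16 passed, and of spermatogenesis genes 6 of 85.

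The level of lin-41 itself did not pass the test at these hours. The gene lin-41 (chromosome I, 9334800 to 9342496, WBcel235) had 66.3, 65.1, 74 and 68.9 CPM in lin-41(xe11) at 18, 20, 22 and 24 h. It had 62.4, 68.4, 74.5 and 70.7 CPM in the double mutant, against 64.3, 69.2, 68.3 and 52.7 CPM in N2. The groups overlapped, and 5 of 8 xe11 libraries stood above N2 of their hour. The log2 fold change of the xe11 strains over N2 was 0.12 ± 0.07 (SE; 95% interval −0.04 to 0.27), with adjusted p = 0.926 in the edgeR quasi-likelihood test with Benjamini-Hochberg adjustment. The N2 library of 24 h was the lowest of the 12, below all 8 xe11 libraries. In fits chosen after the data were seen, 22 and 24 h alone gave 0.27 ± 0.09 (p = 0.0238, adjusted p = 0.539) and the change from 18 and 20 h to 22 and 24 h was 0.29 ± 0.11 (p = 0.025, adjusted p = 0.724). Whether repression of lin-41 had begun in N2 at 24 h was not tested. At 26 to 38 h lin-41 was measured in 14 xe11 and 7 N2 libraries that this comparison did not use. There the log2 fold change of the xe11 strains over N2 was 1.13 ± 0.22 (adjusted p = 0.0117). The mean was 35.0 CPM in the xe11 strains and 17.3 CPM in N2 (scaled over 33 libraries), and 13 of 14 xe11 libraries stood above N2 of their hour.

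The other candidate targets of let-7 family microRNAs gave fold changes near 0 as well. The list held 10 genes, lin-41 included, all 10 were tested, and neither direction had a member with an unadjusted p under 0.05. Their median log2 fold change was −0.05, against −0.01 over all genes tested. The nuclear receptor daf-12, which couples steroid signals to larval stage, gave 0.01 ± 0.08, and the zinc finger factor hbl-1, which holds early larval fates, gave −0.02 ± 0.08. The early timing genes lin-14 and lin-28 gave −0.07 ± 0.08 and −0.05 ± 0.12. The Ras gene let-60 gave 0.08 ± 0.09, the zinc finger factor die-1 −0.06 ± 0.08 and the pharyngeal FoxA factor pha-4 −0.04 ± 0.08. The molting regulators nhr-23 and nhr-25 gave −0.09 ± 0.13 and −0.06 ± 0.18.

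Of the 4 direct LIN41 targets only lin-29, a zinc finger factor of the larval-to-adult switch, passed the filter at 18 to 24 h. It had 0.749, 0.988, 1.92 and 1.89 CPM in lin-41(xe11), 1.31, 1.70, 0.801 and 1.76 CPM in the double mutant, and 0.545, 1.23, 1.38 and 2.23 CPM in N2. These ranges overlapped, and the log2 fold change was 0.12 ± 0.30 (adjusted p = 0.988). The cofactor mab-10 summed to 30 counts over the 8 xe11 libraries and 14 over the 4 N2 libraries, and the DM domain factor mab-3 to 29 over the xe11 libraries and 14 over those of N2. The DM domain factor dmd-3 summed to 3 counts in the xe11 strains and 6 in N2. At 26 to 38 h the xe11 strains were below N2 on the log2 scale by 0.75 at lin-29 (adjusted p = 0.00334), by 1.10 at mab-10 (adjusted p = 0.000432) and by 1.75 at mab-3 (adjusted p = 0.00334).

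**Figure D1:**
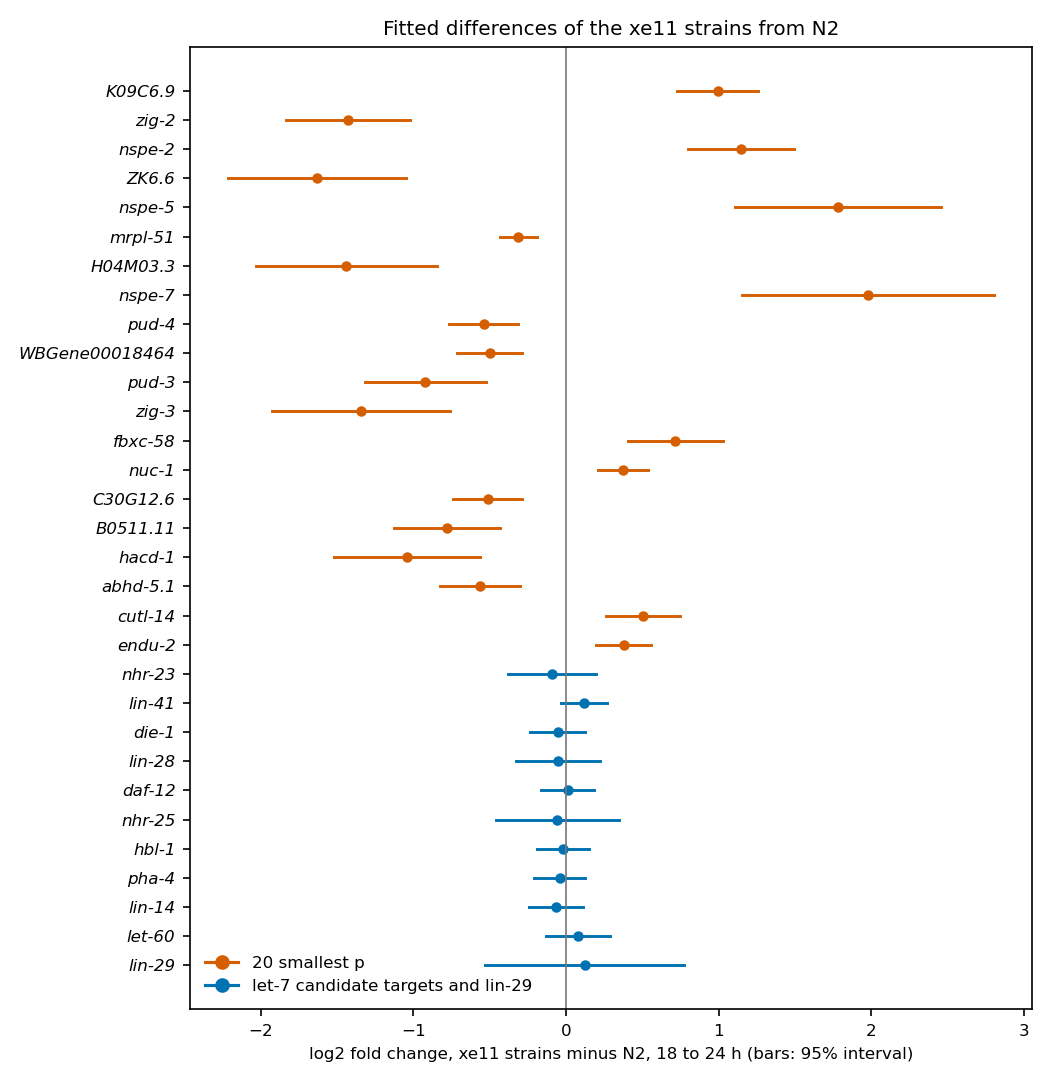
Log2 fold changes of the 2 xe11 strains over N2 at 18 to 24 h (horizontal axis, with 95% intervals) for the 20 genes with the smallest p and for let-7 candidate targets and lin-29 (rows). All intervals of the let-7 candidate targets and lin-29 include 0, and no gene reached an adjusted p under 0.05.

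No gene was called between the xe11 strains and N2 when both strains and all 4 hours were fitted together. With edgeR, 0 of 12089 genes (0%) had an adjusted p under 0.05, and the smallest adjusted p was 0.0602. An unadjusted p under 0.05 was reached by 687 genes (5.68%), 326 higher (2.7%) and 361 lower (2.99%) in the xe11 strains. DESeq2 called 15 genes on the same counts, 7 higher and 8 lower, and limma called 1 on the deposited log2 values. The median absolute log2 fold change was 0.08, and 32 genes (0.265%) differed at least 2-fold on the fitted scale. All 8 xe11 libraries lay outside the range of the 4 N2 libraries for 27 genes (0.223%), 12 above (0.0993%) and 15 below (0.124%).

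The 20 genes with the smallest p were 8 higher and 12 lower in the xe11 strains, and 19 of them had all 8 xe11 libraries on one side of N2 of their hour, which 2.85% of all genes tested had; the p-values chose these genes, so the count is a description. The first was K09C6.9 (WBGene00019563, chromosome V, 853436 to 855066), which had 26.4, 28.6, 23.3 and 26.0 CPM in lin-41(xe11). The double mutant had 30.7, 22.2, 17.1 and 21.6 CPM. In N2 it had 16.7, 11.4, 9.91 and 11 CPM. Every xe11 library stood above the highest N2 library, and the means were 24.5 ± 4.31 CPM in the xe11 strains and 12.3 ± 3.05 CPM in N2 (SD, n = 8 and 4). The fold was 1.99 (log2 0.99 ± 0.12, adjusted p = 0.0602). In let-7(n2853), scaled together with these libraries, K09C6.9 had 8.46, 7.82, 6.52 and 7.75 CPM, below all 3 other strains.

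The second was zig-2 (WBGene00006979, chromosome X, 12340377 to 12341438), of a family of secreted proteins with a pair of immunoglobulin domains. It had 3.65, 4.36, 5.24 and 4.83 CPM in lin-41(xe11), 2.28, 4.03, 2.88 and 2.81 CPM in the double mutant, and 10.4, 10.8, 9.91 and 8.78 CPM in N2. No xe11 library came within the N2 range. The means were 3.76 ± 1.05 CPM in the xe11 strains and 9.99 ± 0.889 CPM in N2 (SD, n = 8 and 4). The log2 fold change was −1.43 ± 0.18 (adjusted p = 0.0602, edgeR). Both K09C6.9 and zig-2 were called by DESeq2, with a robust spread, with estimated age in place of hour and with 26 h added. Of 26 alternative settings in all, 6 called K09C6.9 and 8 called zig-2. Among these, the 12 fits that left out 1 library called K09C6.9 in 0 and zig-2 in 1. In let-7(n2853) of the other time course zig-2 had 3.23, 3.91, 4.54 and 3.65 CPM. Its relative zig-3, which with zig-4 keeps axons in place in the ventral nerve cord, gave −1.34 ± 0.26 (adjusted p = 0.349), with overlapping ranges of 1.06 to 2.24 CPM in the xe11 strains and 1.48 to 5.65 CPM in N2. Of 13 zig genes 12 were tested, 4 had higher and 8 lower values, and their median log2 fold change was −0.07. The gene zig-4 itself gave −0.22 ± 0.10 (p = 0.053 before adjustment). Neuronal marker genes as a list gave a median of 0.01 over 32 members.

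A small difference was seen at mrpl-51 (chromosome IV, 12031324 to 12032154), which encodes a protein of the large subunit of the mitochondrial ribosome. It had 47.6, 51.4, 49.0 and 50.9 CPM in lin-41(xe11), 44.6, 49.2, 45.8 and 45.9 CPM in the double mutant, and 60.4, 67.2, 54.7 and 56.7 CPM in N2. The 8 xe11 libraries lay below all 4 of N2, and the log2 fold change was −0.31 ± 0.06 (adjusted p = 0.343). In let-7(n2853) it had 63.9 to 75.9 CPM. In footprints of whole animals, cell number, RNA per cell and translation per mRNA cannot be told apart, here and for every gene named.

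**Figure D2:**
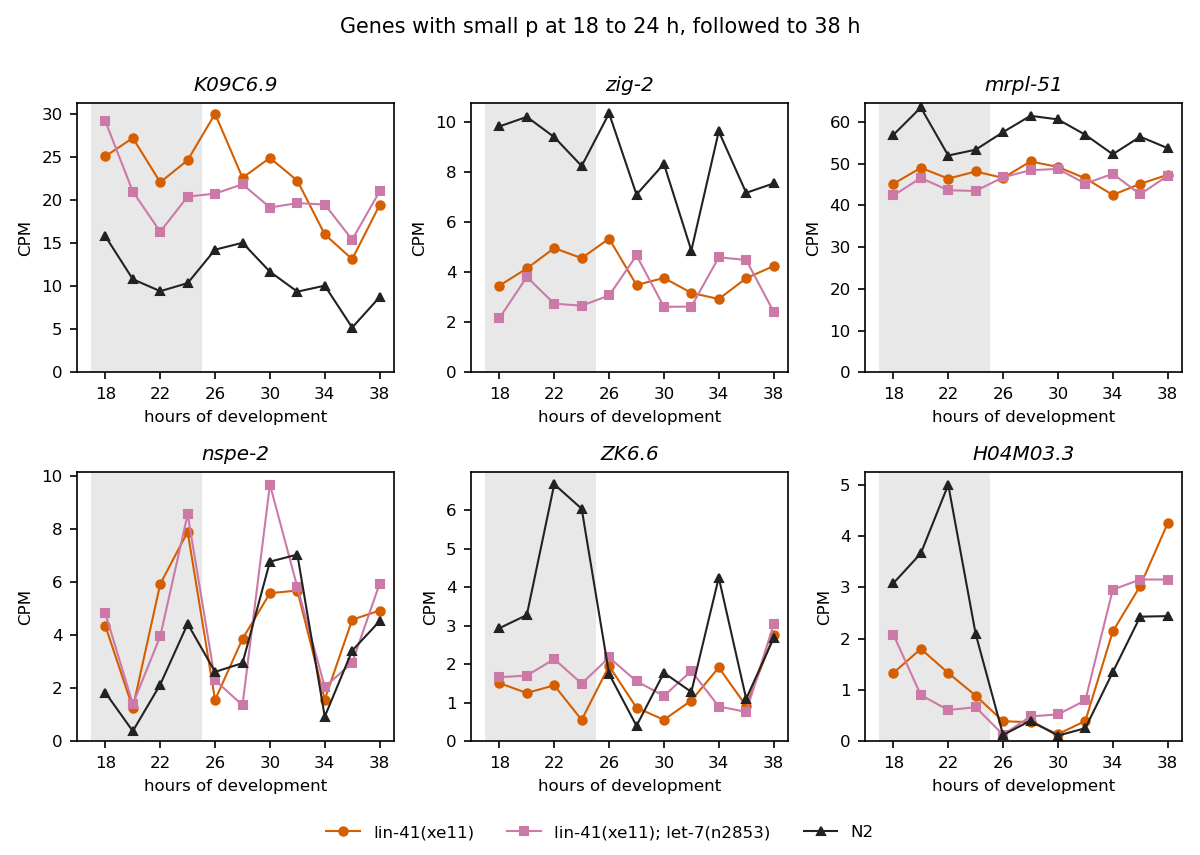
Footprint level (CPM, vertical axis, scaled over the 33 libraries of the 3 strains) against hours of development (horizontal axis) for 6 of the 8 genes with the smallest p, 1 point per library. The shaded hours are those compared. K09C6.9 lies above N2 and zig-2 and mrpl-51 lie below it at every hour to 38 h, whereas nspe-2, ZK6.6 and H04M03.3 cross or meet N2 after 24 h.

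Members of 2 small gene families stood close together in this order. The nspe genes, a nematode-specific peptide family, lie in a cluster on chromosome II between 12612518 and 12629384, and 4 of 7 passed the filter. The 4 that passed, nspe-1, nspe-2, nspe-5 and nspe-7, each gave a higher value in the xe11 strains with an unadjusted p under 0.05, which 2.7% of all genes tested did. The family was set apart after its values were seen, 3 of the 4 being among the 20 genes, and the count is no support for it; nspe-3, nspe-4 and nspe-6 had too few counts to test. For nspe-7 the levels were 23, 11.2, 17.3 and 14.6 CPM in lin-41(xe11), 11.2, 8.48, 17.9 and 10.8 CPM in the double mutant and 5.69, 6.33, 1.63 and 1.44 CPM in N2. The xe11 libraries lay above the N2 range, with a log2 fold change of 1.98 ± 0.37 (adjusted p = 0.349). For nspe-2 they were 4.59, 1.32, 6.26 and 8.37 CPM in lin-41(xe11), 5.08, 1.48, 4.17 and 9.06 CPM in the double mutant and 1.95, 0.408, 2.26 and 4.72 CPM in N2. The level of nspe-2 moved with the hour in all strains, and each xe11 library stood above N2 of its own hour (1.15 ± 0.16, adjusted p = 0.0793). The other members gave 1.78 ± 0.31 for nspe-5 and 0.79 ± 0.21 for nspe-1. The authors' treatment of reads that match more than 1 gene is not given in the sources used here, and no sequences were compared, so how far reads are shared within the family is not known.

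The pair pud-3 and pud-4, neighbours on chromosome V named for protein levels in daf-2 mutants, had lower values. They were set apart after their values were seen, and the search did not cover pud names with a dotted number. For pud-3 the levels were 21.7, 13.2, 21.2 and 16.1 CPM in lin-41(xe11), 31, 21.5, 19.4 and 29.7 CPM in the double mutant and 41.4, 28.2, 42.4 and 54.8 CPM in N2. All 8 xe11 libraries stood below N2 of their hour, though the ranges overlapped (−0.92 ± 0.18, adjusted p = 0.349). For pud-4 the log2 fold change was −0.54 ± 0.10 (adjusted p = 0.349), with 5.84 to 10.4 CPM in the xe11 strains and 9.91 to 13.2 CPM in N2.

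The other 11 genes of the 20 held 7 lower and 4 higher. Those with lower values were ZK6.6 (−1.63 ± 0.26), H04M03.3 (−1.44 ± 0.27), the hydroxyacyl-CoA dehydrogenase gene hacd-1 (−1.04 ± 0.22), B0511.11 (−0.78 ± 0.16), the hydrolase gene abhd-5.1 (−0.56 ± 0.12), C30G12.6 (−0.51 ± 0.10) and WBGene00018464 (−0.50 ± 0.10). Levels of ZK6.6 were 0.589 to 2.24 CPM in the xe11 strains and 3.12 to 7.03 CPM in N2, and those of H04M03.3 were 0.641 to 2.19 CPM in the xe11 strains and 2.23 to 5.27 CPM in N2. Both of these low genes stood wholly below N2, on sums of 119 and 103 counts over the 8 xe11 libraries and of 162 and 120 counts over the 4 of N2. Those with higher values were the F-box gene fbxc-58 (0.72 ± 0.14, higher in 7 of 8), the cuticlin-like gene cutl-14 (0.50 ± 0.11), the endoribonuclease gene endu-2 (0.38 ± 0.08) and nuc-1 (0.37 ± 0.07), which encodes a DNase that clears DNA of dying cells. Adjusted p-values ran from 0.237 to 0.473 for these 11 genes. The level of hacd-1 was 24.1, 23.2, 41.8 and 64.1 CPM in lin-41(xe11), 52.4, 33.9, 37.8 and 90.3 CPM in the double mutant and 54.1, 51, 124 and 165 CPM in N2. All 8 xe11 libraries of hacd-1 stood below N2 of their hour, most narrowly in the double mutant at 18 h. For nuc-1 the 8 xe11 libraries held 47.1 to 72.3 CPM and the 4 of N2 held 34.8 to 58.4 CPM, higher in 8 of 8 at the matched hour.

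Later libraries of the same strains, at 26 to 38 h, gave a second measure of the same contrast. There 189 of 13091 genes were called (1.44%), 31 higher (0.237%) and 158 lower (1.21%). All 20 genes above were tested, 18 kept their sign and 4 were called, in the same direction: K09C6.9 (0.96 ± 0.10, adjusted p = 1.89e-05), zig-2 (−1.09 ± 0.13, adjusted p = 0.000129), mrpl-51 (−0.29 ± 0.03, adjusted p = 5.13e-05) and B0511.11 (−0.48 ± 0.11, adjusted p = 0.0467). At these hours K09C6.9 had 13.1 to 30 CPM (median 20.2) in the xe11 strains and 5.19 to 15 CPM (median 10.1) in N2. It was higher than N2 of its hour in 14 of 14 xe11 libraries, and zig-2 was lower in 14 of 14, with medians of 3.63 CPM in the xe11 strains and 7.56 CPM in N2. The level of mrpl-51 was 42.5 to 50.5 CPM in the xe11 strains and 52.2 to 61.5 CPM in N2, again without overlap. The labels do not say whether hours of a strain came from 1 culture. The share of all genes that kept their sign between the windows was not counted, so the 18 of 20 are a description.

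The 4 tested nspe genes were not called at 26 to 38 h. There nspe-7 gave −0.00 ± 0.25 and nspe-2 gave 0.05 ± 0.18 (adjusted p = 0.999 and 0.951), while nspe-5 gave 0.69 ± 0.32 and nspe-1 0.13 ± 0.11 (adjusted p = 0.352 and 0.679). The change from the earlier to the later window was −1.98 ± 0.47 for nspe-7 and −1.10 ± 0.28 for nspe-2, with adjusted p = 0.495 for each. H04M03.3 was the only gene called for a change of the xe11 difference between the windows, 1 of 13788 tested (0.00725%). Its difference was −1.44 ± 0.27 at 18 to 24 h and 0.64 ± 0.18 at 26 to 38 h, and the change was 2.07 ± 0.32 (adjusted p = 0.012).

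Read from the later hours back, 147 of the 189 genes called at 26 to 38 h were tested at 18 to 24 h, and 30 of these had an unadjusted p under 0.05 there, against 5.68% of all genes. All 30 had the same direction in both windows, 8 higher and 22 lower, and the share of all genes that did was not counted. Genes named here were chosen after their values were seen. Higher ones included aly-2, an mRNA export factor, with 28.4 to 38.5 CPM in the xe11 strains and 25.9 to 27.9 CPM in N2 at 18 to 24 h (0.30 ± 0.07, and 0.26 ± 0.05 later with adjusted p = 0.00468). The glucuronosyltransferase gene ugt-30 had 5.83 to 10 CPM in the xe11 strains and 4.70 to 5.77 CPM in N2 (0.51 ± 0.12, and 0.47 ± 0.09 later with adjusted p = 0.00719). Neither gene overlapped N2 at 18 to 24 h.

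Lower ones included the small heat shock protein gene sip-1 (−0.50 ± 0.12, and −0.53 ± 0.07 later with adjusted p = 0.000733), the trehalase gene tre-2 (−0.49 ± 0.12, and −0.44 ± 0.10 later with adjusted p = 0.0326) and the phosphatase gene pho-14 (−0.41 ± 0.10, and −0.36 ± 0.07 later with adjusted p = 0.0179). For tre-2 the levels were 20.3, 28.1, 34.4 and 21.4 CPM in lin-41(xe11), 19.6, 29.9, 28.0 and 23.9 CPM in the double mutant and 22.1, 33.5, 45.3 and 45.9 CPM in N2. Each xe11 library of tre-2 stood below N2 of its hour, and the gap was widest at 24 h. The amine N-methyltransferase gene anmt-3 had 87.4 to 98.7 CPM in the xe11 strains and 102 to 107 CPM in N2, a log2 fold change of −0.15 ± 0.05 that was −0.31 ± 0.06 later (adjusted p = 0.013).

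Further genes separated the xe11 strains from N2 when 22 and 24 h were fitted alone, a choice made after the data were seen. With 22 and 24 h alone, 9 of 11738 genes were called (0.0767%), 6 lower (0.0511%) and 3 higher (0.0256%) in the xe11 strains, and with 18 and 20 h alone edgeR called 0 of 11639, with 326 genes at an unadjusted p under 0.05. The 6 lower ones were the cuticle collagens col-158 (−2.47 ± 0.13) and col-123 (−3.24 ± 0.23), the fatty acid and retinol-binding protein gene far-3 (−2.97 ± 0.22), the lipase-related gene lips-15 (−1.60 ± 0.13), which lies beside the nspe cluster, the glucuronosyltransferase gene ugt-66 (−1.95 ± 0.17) and gpdh-1 (−1.79 ± 0.17), a glycerol-3-phosphate dehydrogenase of the osmotic stress response. Their adjusted p-values ran from 0.00384 to 0.0296. The 3 higher ones were nspe-7, nspe-1 and F55G11.8 (1.04 ± 0.11, adjusted p = 0.0487).

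In these 6 genes the N2 libraries of 22 and 24 h stood apart from every other library, N2 at 18 and 20 h included. For far-3 the levels were 1.87, 2.14, 2.81 and 2.0 CPM in lin-41(xe11), 0.964, 1.27, 3.68 and 4.05 CPM in the double mutant and 0.623, 2.25, 23.3 and 26.6 CPM in N2. For gpdh-1 they were 1.87, 2.63, 3.32 and 2.24 CPM in lin-41(xe11), 2.37, 2.33, 3.52 and 2.90 CPM in the double mutant and 2.41, 2.86, 10.9 and 9.83 CPM in N2. At 18 and 20 h the strains lay within the same few CPM. None of the 6 genes was called at 26 to 38 h, where far-3 gave −0.24 (adjusted p = 0.594) and gpdh-1 0.03 (adjusted p = 0.977). A test of the change from 18 and 20 h to 22 and 24 h called 3 of 12089 genes (0.0248%): col-123 (−3.62 ± 0.37), F53F4.7 (−3.29 ± 0.38) and F55G11.8 (1.09 ± 0.12), each with adjusted p = 0.026. The calls at 22 and 24 h rest on 2 N2 libraries, and what set those libraries apart was not tested.

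**Figure D3:**
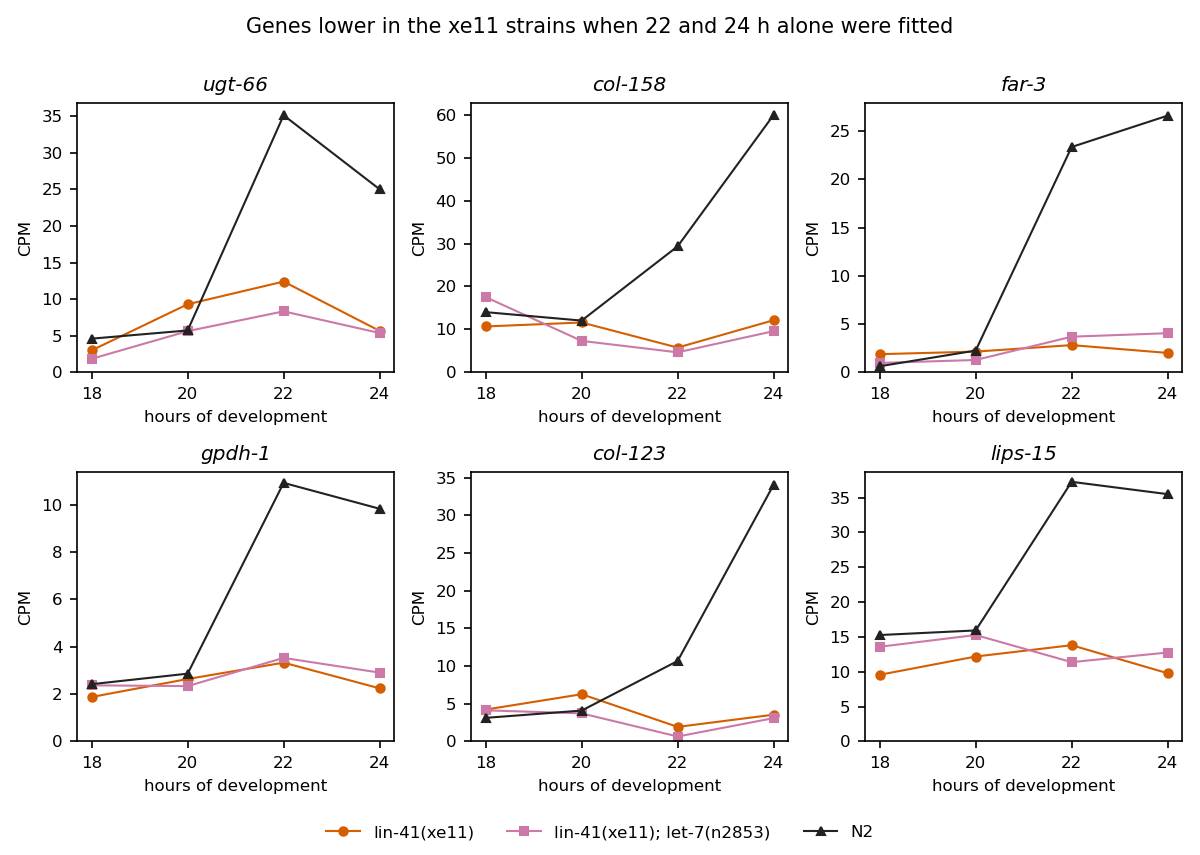
Footprint level (CPM, vertical axis) against hours of development (horizontal axis) in each library of the 3 strains for the 6 genes lower in the xe11 strains at 22 and 24 h. The N2 points at 22 and 24 h lie above all xe11 points, whereas at 18 and 20 h the 3 strains lie close together.

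Each xe11 strain was also set against N2 on its own, and the strains against each other. The 2 comparisons with N2 share the N2 libraries, so only their own values are given. For lin-41(xe11) 0 of 12089 genes were called (0%), 573 had an unadjusted p under 0.05 (4.74%) and the smallest adjusted p was 0.0644, at K09C6.9. For the double mutant 1 gene was called (0.00827%), and 624 had an unadjusted p under 0.05 (5.16%). The called gene was zig-2, below N2 by 1.75 ± 0.17 on the log2 scale (adjusted p = 0.0152). In lin-41(xe11) zig-2 gave −1.17 ± 0.16 (adjusted p = 0.102), and the difference between the strains, −0.58 ± 0.18, had adjusted p = 1. Without any single hour the double mutant's difference at zig-2 ran from −1.88 to −1.58 and was not called, with adjusted p of 0.107 to 0.289.

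Between the xe11 strains 1 gene was called (0.00827%), and 461 genes had an unadjusted p under 0.05 (3.81%). The gene was F52B10.3 (WBGene00044304, chromosome X, 2892444 to 2898356), with 1.93, 1.80, 1.92 and 1.76 CPM in the double mutant, 4.97, 5.27, 4.86 and 3.89 CPM in lin-41(xe11) and 3.74, 3.68, 4.27 and 3.93 CPM in N2. The double mutant lay below both other strains at every hour. Its F52B10.3 level was below that of lin-41(xe11) by 1.35 ± 0.15 on the log2 scale (adjusted p = 0.0475). Without any single hour the value ran from −1.41 to −1.28 and was not called. In let-7(n2853), scaled with these libraries, it had 3.93, 4.32, 4.26 and 3.69 CPM.

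The next genes in this order, not called, were F59F4.3 on chromosome X and the scramblase family gene scrm-4 on chromosome I. For F59F4.3 the levels were 11, 7.63, 7.05 and 6.95 CPM in the double mutant, 15.1, 17.9, 20.7 and 18.9 CPM in lin-41(xe11) and 19.5, 16.9, 15.1 and 16.2 CPM in N2 (double mutant minus lin-41(xe11), −1.14 ± 0.16, adjusted p = 0.275). In let-7(n2853) it had 8.84, 8.76, 6.81 and 8.16 CPM. For scrm-4 the difference between the strains was −0.84 ± 0.14 (adjusted p = 0.463), with 4.98 to 7.83 CPM in the double mutant and 10.6 to 12 CPM in lin-41(xe11). The levels of let-7(n2853) lay among those of the double mutant for F59F4.3 and among those of lin-41(xe11) and N2 for F52B10.3, and since time course and purification differ, no test was made.

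**Figure D4:**
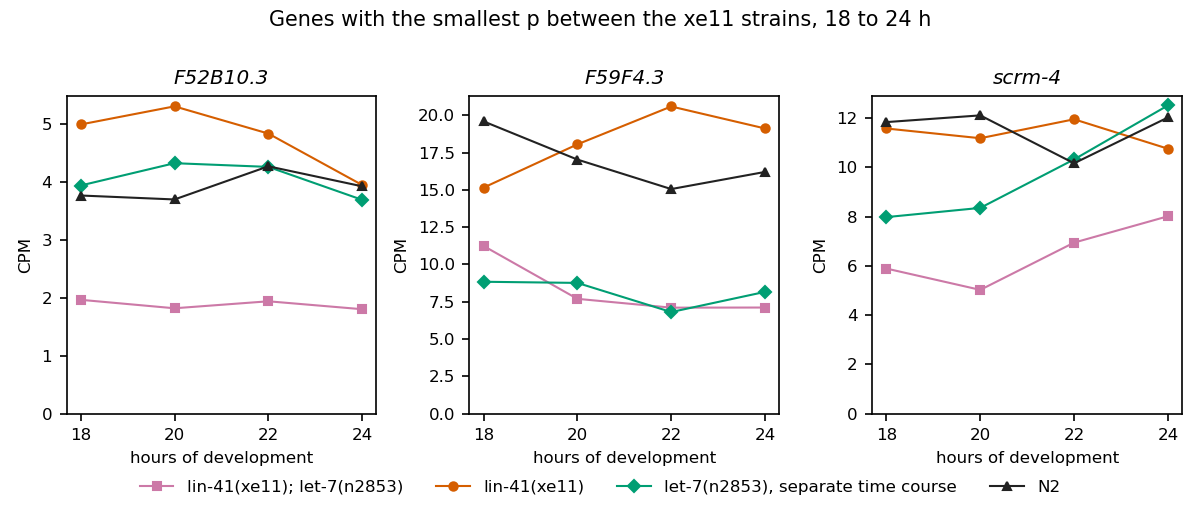
Footprint level (CPM, vertical axis, scaled over 16 libraries) against hours of development (horizontal axis) for the 3 genes with the smallest p between the double mutant and lin-41(xe11), with N2 and with let-7(n2853) of the separate time course. The double mutant lies below lin-41(xe11) at all 4 hours in each gene, and let-7(n2853) lies near the double mutant in F59F4.3 and near N2 in F52B10.3.

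Gene lists held no called member at 18 to 24 h. Lists of the cuticle and of molting had lower medians than all genes, and the medians of the double mutant were below those of lin-41(xe11). The 6 furrow collagens, which shape the circumferential furrows of the cuticle, were all tested, and their median log2 fold change over N2 was −0.06 for lin-41(xe11) while that for the double mutant was −0.37, against −0.01 in each strain over all genes. For lin-41(xe11) the median was −0.13 over 13 body-shape collagens, −0.13 over 38 hedgehog-related genes and −0.08 over 27 genes of molting and the apical matrix. For the double mutant the same lists gave −0.54, −0.44 and −0.28. With an unadjusted p under 0.05 in the pooled comparison, 0 of 6 furrow collagens, 1 of 38 hedgehog-related genes, 1 of 27 molting genes and 5 of 95 col family collagens were lower, against 2.99% of all genes tested, and none of these lists had a higher one. The 1 such gene among 13 body-shape collagens, dpy-17, was higher (1.19 ± 0.45, adjusted p = 0.854, higher in 8 of 8). Its levels were near the filter of 1 CPM, with 0.742 to 3.47 CPM in the xe11 strains and 0.613 to 1.05 CPM in N2.

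These medians differed in sign between hours. The furrow collagens gave 0.45, −0.15, −0.61 and 0.07 in lin-41(xe11) at 18, 20, 22 and 24 h, and 0.15, 0.27, −1.47 and −0.57 in the double mutant (medians of log2 differences to N2 of the same hour, CPM plus 0.5). Their member dpy-7 had 579, 436, 107 and 370 CPM in lin-41(xe11), 480, 610, 64.7 and 244 CPM in the double mutant and 432, 528, 170 and 368 CPM in N2. In all strains dpy-7 was lowest at 22 h, and the double mutant was the lowest of the 3 there. Hedgehog-related genes gave 0.27, 0.12, 0.04 and −0.79 in lin-41(xe11), while the double mutant gave −0.62, 0.01, −0.07 and −1.0. The molting gene mlt-10 had 349, 719, 306 and 111 CPM in lin-41(xe11), 103, 780, 292 and 69.1 CPM in the double mutant and 328, 553, 369 and 279 CPM in N2. Such genes cycle with the molts. The estimated age was 0.4 h above the hour at 24 h in lin-41(xe11) and 0.5 h below it at 20 h in the double mutant. In the double mutant it differed by 0 h at 18, 22 and 24 h, the hours of its −0.62, −1.47 and −1.0 above. At 18 h no lower age could be given. The part of age in these values was not tested. Regulators of the molting cycle (12 tested, median −0.06) had no member with an unadjusted p under 0.05.

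**Figure D5:**
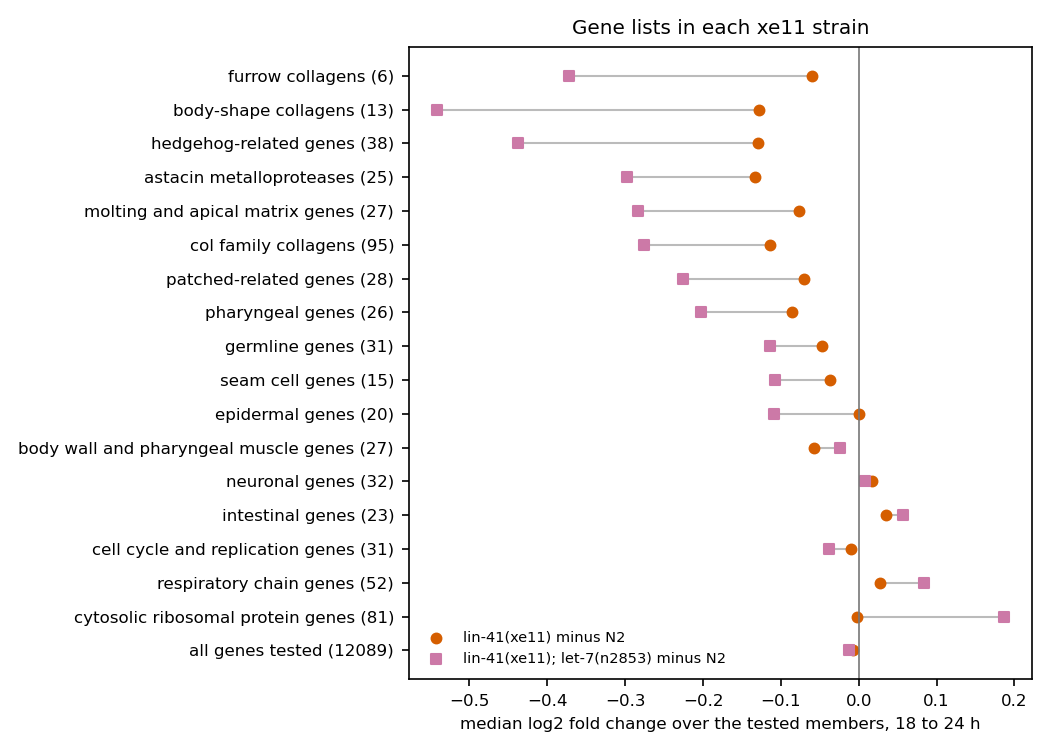
Median log2 fold change over the tested members of gene lists (horizontal axis, number of members in brackets) at 18 to 24 h, for each xe11 strain minus N2. Cuticle and molting lists lie lower in the double mutant than in lin-41(xe11), ribosomal protein genes lie higher, and the medians of all genes are −0.01 in both.

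Cytosolic ribosomal protein genes had higher values in the double mutant. The median of 81 tested members was 0.19 for the double mutant over N2 and −0.00 for lin-41(xe11) over N2. Between the strains it was 0.19, and 37 members were higher and 0 lower in the double mutant with an unadjusted p under 0.05, against 1.9% of all genes higher. The list's differences to N2 by hour were 0.18, 0.33, 0.00 and 0.22 in the double mutant, while lin-41(xe11) gave −0.10, −0.07, −0.04 and 0.21. The largest was that of the double mutant at 20 h, the library with an estimated age 0.5 h below its hour; the part of age in it was not tested. Their member rpl-18 had 1424, 2099, 1692 and 1812 CPM in the double mutant, 1036, 1479, 1532 and 1709 CPM in lin-41(xe11) and 1163, 1669, 1599 and 1479 CPM in N2. None of the 81 was called after adjustment over all genes. Respiratory chain genes gave medians of 0.08 for the double mutant and 0.03 for lin-41(xe11) over 52 tested members.

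Some germline genes had lower values in the xe11 strains. Of 31 tested members 0 were higher and 7 lower with an unadjusted p under 0.05 in the pooled comparison, against 2.7% and 2.99% of all genes, and the list's median was −0.08. By hour the median difference to N2 was 0.03, −0.02, −0.19 and −0.15 in lin-41(xe11) at 18, 20, 22 and 24 h, while the double mutant gave −0.08, −0.02, −0.22 and −0.16, so the lower values lay mainly at 22 and 24 h. Both strains are set there against the same N2 libraries of 22 and 24 h, which stood apart in other genes above. None of the 7 was called, and rec-8, with the smallest p of the list, had adjusted p = 0.785 (edgeR). The 7 were the meiotic cohesin gene rec-8 (−0.20 ± 0.06), the axis gene htp-1 (−0.43 ± 0.16), the synaptonemal complex genes syp-1 (−0.34 ± 0.15) and syp-3 (−0.62 ± 0.25), the P granule genes glh-2 (−0.34 ± 0.12) and pgl-3 (−0.17 ± 0.08), and cpg-2 (−0.34 ± 0.14), an eggshell proteoglycan. For rec-8 the levels were 18.5, 20.2, 30.8 and 40.9 CPM in lin-41(xe11), 18.0, 23, 28.0 and 40.1 CPM in the double mutant and 21.4, 24.9, 35.6 and 43.2 CPM in N2. The level of rec-8 was higher at each later hour in every strain, and each xe11 library stood below N2 of its hour. At 26 to 38 h rec-8 gave −0.00 (adjusted p = 0.996), and none of the 31 germline genes tested then was called. The list's summed level was 622 to 1051 CPM in the xe11 strains and 675 to 1096 CPM in N2.

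Genes of innate immunity held members of both directions. Of 50 tested lysozyme and antimicrobial peptide genes 7 were higher and 3 lower with an unadjusted p under 0.05, and of 90 C-type lectin genes 9 were higher and 4 lower, against 2.7% and 2.99% of all genes. The invertebrate lysozyme gene ilys-5 had 355, 367, 357 and 499 CPM in lin-41(xe11), 339, 372, 322 and 475 CPM in the double mutant and 313, 305, 277 and 313 CPM in N2. Its xe11 libraries all lay above the N2 range (0.34 ± 0.07, adjusted p = 0.473). The lysozyme gene lys-4 gave 0.38 ± 0.11 (adjusted p = 0.762), higher in 8 of 8. Among the lower ones, irg-5, named for an infection response, gave −0.36 ± 0.11 (adjusted p = 0.822, lower in 8 of 8), and clec-169, the lectin gene with the smallest p, gave −0.37 ± 0.11 (adjusted p = 0.795, lower in 7 of 8). At 26 to 38 h ilys-5 gave −0.01 and lys-4 0.17, neither called. Of 23 tested intestinal markers 2 were higher and 0 lower with an unadjusted p under 0.05, and the list's median was 0.07.

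Positions along the genome were set beside the differences, since background variants linked to an allele would lie near it. Genes with an unadjusted p under 0.05 made up 4.95% of those tested on chromosome I, which carries lin-41, and 5.28% on the X chromosome, which carries let-7. On the other chromosomes the share was 5.94% on II, 5.08% on III, 6.53% on IV and 6.50% on V. Within 1 Mb of lin-41 it was 14 of 325 genes (4.31%) and within 4 Mb 60 of 1091 (5.50%). Of these 14 the smallest p was at F26H9.5, 19.9 kb from lin-41, with a log2 fold change of −0.34 ± 0.08 (adjusted p = 0.595), lower in 8 of 8. Around let-7, placed by RefSeq on WBcel235, the share was 17 of 215 genes (7.91%) within 1 Mb and 43 of 654 (6.57%) within 4 Mb. The let-7 allele is carried by the double mutant alone, and between the double mutant and lin-41(xe11) the share was 6 of 215 genes (2.79%) within 1 Mb of let-7 and 27 of 654 (4.13%) within 4 Mb, against 3.81% of all genes. Of the 17 genes of the pooled comparison the smallest p was at the nuclear receptor gene nhr-3, 182 kb from let-7, which gave 0.19 ± 0.05 (adjusted p = 0.785) at 18 to 24 h and 0.26 ± 0.06 (adjusted p = 0.0276) at 26 to 38 h.

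Of the 20 genes with the smallest p, 1 had no position. The others were 2 on I, 4 on II, 0 on III, 3 on IV, 6 on V and 4 on X. Of the tested genes with a position, 16.1% were on I, 16.4% on II, 16.2% on III, 16.1% on IV, 20.1% on V and 15.2% on X. The 6 on V, ZK6.6, K09C6.9, hacd-1, pud-3, pud-4 and abhd-5.1, start between 388697 and 4847653. On II, nspe-2, nspe-5 and nspe-7 lie in the nspe cluster, and C30G12.6 starts at 7292026. Whether these positions cluster was not tested. The 2 on chromosome I, cutl-14 and B0511.11, start at 10628743 and 10648600, within 2 Mb of lin-41, and had opposite signs. None of the 4 on the X chromosome, zig-2, zig-3, nuc-1 and endu-2, lies within 2 Mb of let-7, and 1 of them, zig-2, lies within 4 Mb.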

How the data were processed

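Ribosome-protected fragments were sequenced from whole worms. The authors deposited a table of read counts per gene for all libraries and a table of log2 values, which are whole-library-scaled counts plus 8 on the log2 scale, as tested on the values. Reads were aligned with Bowtie, per the submitters' processing notes; the aligner's version, the build and gene models used, and how reads with several matches were handled, are not given in the sources used here. Members of gene families (nspe, pud, collagens) could share reads, which no sequence was at hand to check.

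The deposited counts of 12 libraries were fitted with edgeR 4.0.16 in R 4.3.3 (quasi-likelihood test, TMM scaling, hour as a factor, so that libraries of the same hour form a block), keeping genes that reached 1 CPM in 4 or more libraries (7 or more for 26 to 38 h). All p-values were adjusted by Benjamini-Hochberg over all genes tested, with a threshold of 0.05. The strains were also fitted apart in a 3-group model. Intervals are 95% intervals and cover the spread between libraries; no separate sampling interval was computed. Alternatives were relative log expression scaling, robust spread, other filters, no hour term, estimated age, DESeq2 1.42.0, limma 3.58.1 on the deposited log2 values, leaving out each library, and other sets of hours. Differences by hour used log2(CPM + 0.5). Age was the point of the N2 course, interpolated in steps of 0.1 h, with which a library correlated best.

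The text names lin-41 with the candidate targets of let-7 and LIN41, called genes or, where fewer than 10 were called, the 20 with the smallest p, genes called between the xe11 strains, and genes said to be chosen after their values were seen. The members and the 44 gene lists were chosen with earlier results of these data known. Symbols were found for 18778 of 20182 genes and positions in WBcel235 (Ensembl release 115) for 19513; 189 symbols were ambiguous. No library pair was identical.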

Additional observations from a re-analysis of the deposited data

Results flagged for a closer look

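Among 70 pairs of a named gene and a strain, 5 had 1 hour far from the other 3 by Dixon's criterion, and chance flags about 1 in 20 such groups. All values here are log2 differences to N2 of the same hour. In lin-41(xe11), K09C6.9 gave 0.642 at 18 h, against 1.19 to 1.28 at the other hours. In the same strain nspe-5 gave 1.75 at 22 h, against 0.817 to 0.898, and H04M03.3 gave −1.60 at 22 h, against −0.985 to −0.872. In the double mutant pud-4 gave −0.272 at 18 h, against −0.527 to −0.496, and lin-28 gave −0.316 at 20 h, against 0.167 to 0.241.

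The xe11 strains differed from each other at F52B10.3, by −1.35 (double mutant minus lin-41(xe11), log2, tested in 1 model). The xe11 difference at H04M03.3 changed by 2.07 between the windows (26 to 38 h minus 18 to 24 h, log2, tested as an interaction).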

How the results depend on the processing

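Against 0 calls for both xe11 strains minus N2, the robust spread called 2 genes (K09C6.9 and zig-2), estimated age in place of hour 2 (the same 2 genes), adding 26 h 2 (the same 2), the double mutant alone 1, limma on the deposited log2 values 1 (nspe-2), DESeq2 15, no filter on low counts 7, and a spread estimated over 33 libraries 8. In fits chosen after seeing the data, 22 and 24 h alone gave 9 calls and 18 and 20 h alone 0. Leaving out 1 library gave 0 to 2 calls, the 2 (zig-2 and nspe-5) without lin-41(xe11) at 24 h. The other scaling and the stricter filter left the count at 0. For lin-41(xe11) minus N2, no filter gave 3 calls, and leaving out 1 hour gave 0 to 1. For the double mutant minus N2 (1 call), leaving out 1 hour gave 0 each time. For the double mutant minus lin-41(xe11) (1 call), relative log expression scaling gave 0, with adjusted p = 0.0512 for F52B10.3, and leaving out 1 hour gave 0 to 1, the call being F59F4.3 without 18 h.

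The hour term is the block that pairs libraries of the same hour. Without this replicate block, the pooled comparison kept 0 calls (smallest adjusted p = 0.114), the double mutant minus N2 had 2, the comparison at 26 to 38 h had 3 in place of 189, and the change between windows had 0 in place of 1. The causes of these changes were not tested. In the pooled comparison, which had no call to lose, 822 values of 32 genes (the 20 with the smallest p and the fixed lists among them) were recomputed: 751 kept direction and side of the threshold, 36 gained a call and 35 changed sign with neither value called. Other named genes were not recomputed, apart from zig-2 and F52B10.3 in the comparisons that called them. The median SE was 0.11 on the log2 scale, and 0.0638 for genes at 50 to 100 CPM in N2.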
